A study of Mus musculus with 7 samples.

Results

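Genes for fatty acid oxidation and targets of the peroxisome proliferator-activated receptors (PPARs) were examined in hearts of dystrophic mice that kept or lost IKKβ in cardiomyocytes. The set was a list of 38 named genes that covers the receptors and their coactivators, fatty acid uptake, the carnitine shuttle, mitochondrial beta-oxidation, electron transfer, PPAR-responsive control genes and lipid droplets. Of these, 35 were measured by a probe set whose only annotated gene was the member, among 18193 genes measured in this way. Where a gene had several such probe sets, the one with the highest mean over all hearts was used. Acsl1 and Ucp2 had no probe set in the annotation used here, and Cpt1b had only a probe set that also names other genes, so these 3 members were not analysed here.

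The adult heart draws most of its energy from long-chain fatty acids, which are taken up, activated to acyl-CoA, moved into mitochondria as carnitine esters and shortened in repeated cycles that feed electrons to the respiratory chain. PPARα and PPARδ are nuclear receptors that bind fatty acids, pair with a retinoid X receptor and, with the coactivators PGC-1α and PGC-1β, switch on most genes of this route. The same receptors drive genes that set the choice of fuel, such as Pdk4, whose product closes the entry of pyruvate into the mitochondrial oxidation of glucose.

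All mice were mdx, which lack dystrophin, and all carried floxed IKKβ, the kinase subunit that activates classical NF-κB signalling. In the 4 mdx HRTΔIKKβ mice (Myh6-cre;IKKβΔ in the labels) Cre was driven by the Myh6 promoter (alpha myosin heavy chain), which acts in cardiomyocytes only. The 3 mdx IKKβf/f controls were littermates of the same age without Cre. Hearts were taken at 7 months, 1 heart per array, so cells that do not carry the deletion also contributed RNA. In such bulk samples fewer cells of a type and less RNA per cell cannot be told apart. Hearts with dystrophin were not analysed here, so no value says how far a gene was from that of a healthy heart.

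Expression was given as log2 RMA values, in which 1 unit is a doubling of the signal of a probe set. Array medians lay between 6.73 and 6.75 and pairs of arrays correlated at 0.9875 to 0.9959 over all probe sets. The brightest of 5 probe sets for Ikbkb, the deleted gene, read 0.18 ± 0.11 (difference ± SE) lower in mdx HRTΔIKKβ hearts (limma adjusted p = 0.801), and the others differed by -0.08 to 0.02. Because it is unknown here whether their targets include the floxed exons, and other cells keep the gene, these readings neither check nor contradict the labels. The mean of 8 cardiomyocyte markers lay between -0.03 and 0.03 around their own average in every heart. All of them but Ryr2 read 14.74 or more, where the brightest value of an array was 15.06 to 15.09. Whether signal near the top of the range narrows their spread was not tested, so they do not show equal cardiomyocyte content. Markers of other tissues varied more. The heart of control replicate 1 stood 4.03 log2 units above the average for 8 skeletal muscle genes (all others -1.42 to 0.83), and that of mdx HRTΔIKKβ replicate 2 stood 1.22 above it for 6 measured adipocyte genes (all others -0.87 to 0.38). The mean of 5 atrial genes ran from -1.99 in control replicate 2 to 1.18 in mdx HRTΔIKKβ replicate 4.

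No member passed an adjusted p of 0.05 in the limma fit over all probe sets, and neither did any other of the 45037 probe sets (0%). The smallest adjusted p on the array was 0.336, while 2735 probe sets had an unadjusted p under 0.05. Among the 35 members, 17 had a mean above and 18 a mean below that of the controls, with a median difference of -0.01 against -0.01 over all genes. Angptl4 was the one member with an unadjusted p under 0.05 and a higher mean, which is 2.86% of the members against 3.25% of all genes. No member had such a p with a lower mean, against 2.95% of all genes. The groups did not overlap for Angptl4, higher, and Hadh, lower, or 5.71% of the members against 5.67% of all genes. Both shares lie near those of the whole array. Angptl4 and Pdk4 differed by at least 1.5-fold upward, which is 5.71% of the members against 1.14% of all genes, and no member did so downward, against 0.313% of all genes. All 35 adjusted p-values lay between 0.796 and 0.994.

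**Figure D1:**
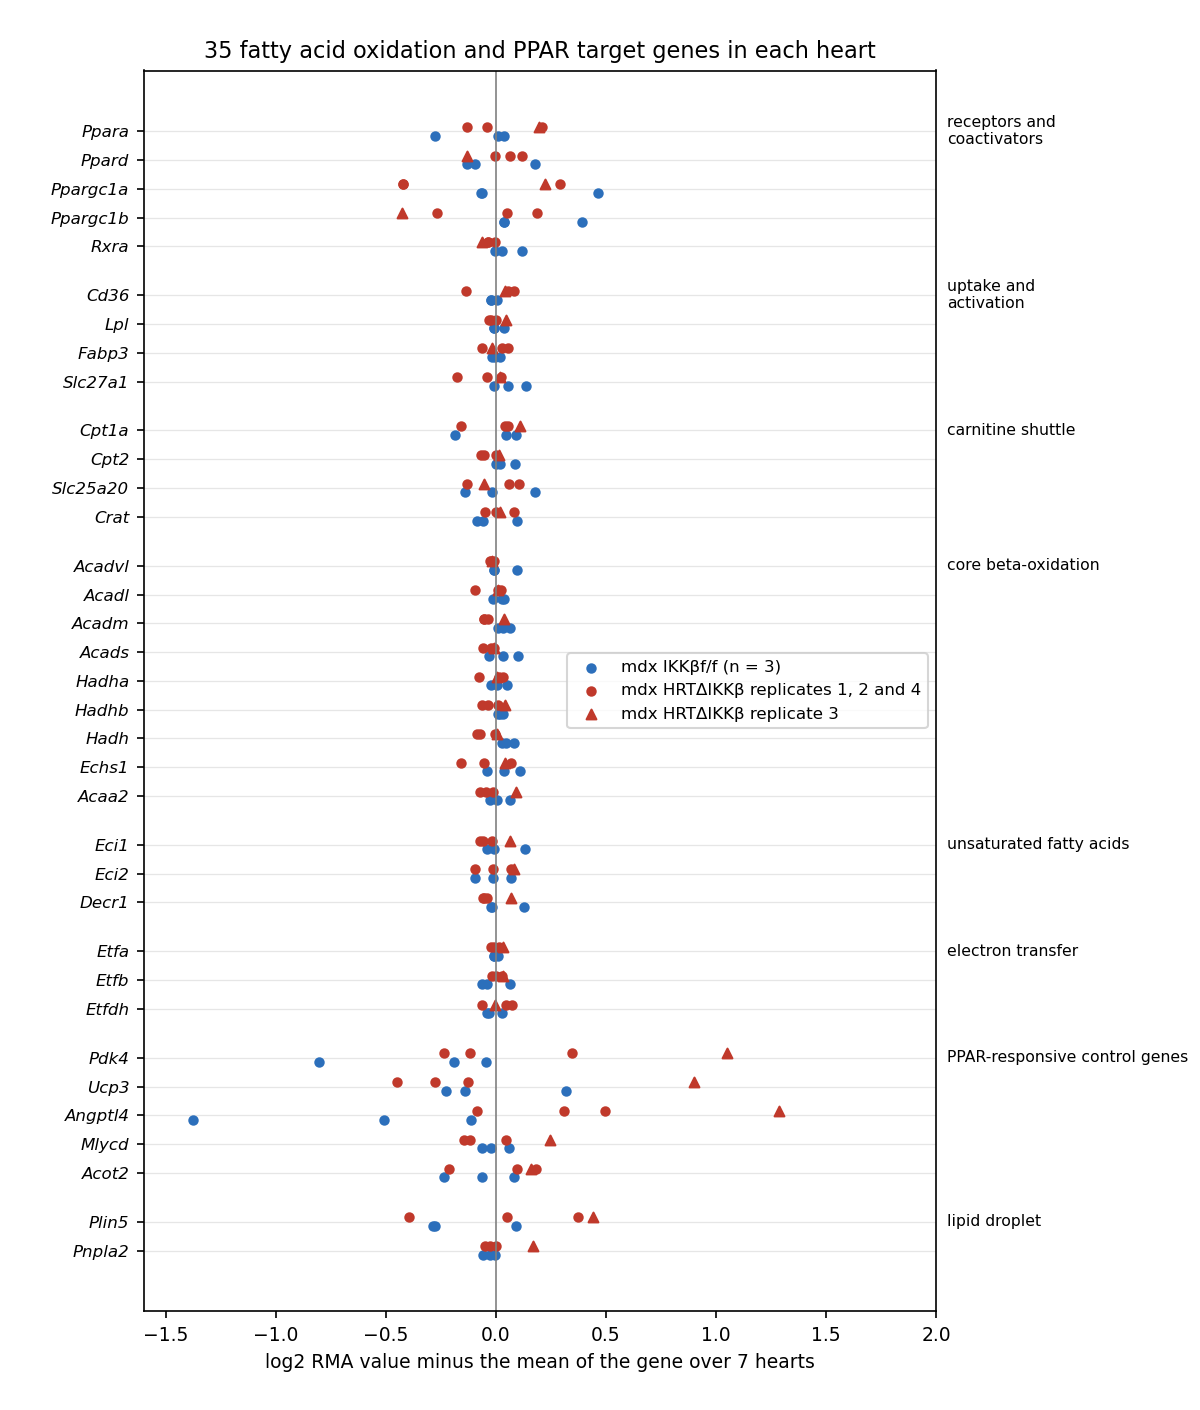
Log2 RMA value of each of the 35 measured members in each heart, minus the mean of that member over the 7 hearts, ordered by step of the pathway. Blue points are the 3 mdx IKKβf/f hearts and red symbols the 4 mdx HRTΔIKKβ hearts, with replicate 3 as a triangle. Points for the oxidation enzymes lie close to 0, while Pdk4, Ucp3, Angptl4 and Plin5 spread widely, with mdx HRTΔIKKβ replicate 3 the highest for each of them.

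The spread between hearts differed widely among the members. For 23 of the 35 the SD over all 7 hearts was under 0.1 log2 units, below the median of all genes (0.111). These were uptake, carnitine and oxidation enzymes for the most part. A small SD was not particular to them. Among other bright genes it was 0.0092 for Mdh1, 0.0214 for Atp5a1 and 0.0303 for Cox5b, though 0.6352 for Nppa. For 5 members it was above 0.3, namely Angptl4 (0.835), Pdk4 (0.574), Ucp3 (0.463), Ppargc1a (0.345) and Plin5 (0.331). The other 7, among them Ppargc1b (0.273), Ppara (0.173) and Acot2 (0.173), lay in between, from 0.1195 upward. Only 0.77% of all genes had a larger SD than Angptl4, and 99.4% had a larger one than Etfa (0.018). As a limit, 15 members had a mean above 13 where the brightest value of an array was 15.06 to 15.09, and whether signal near the top of the range narrows their spread was not tested.

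**Figure D2:**
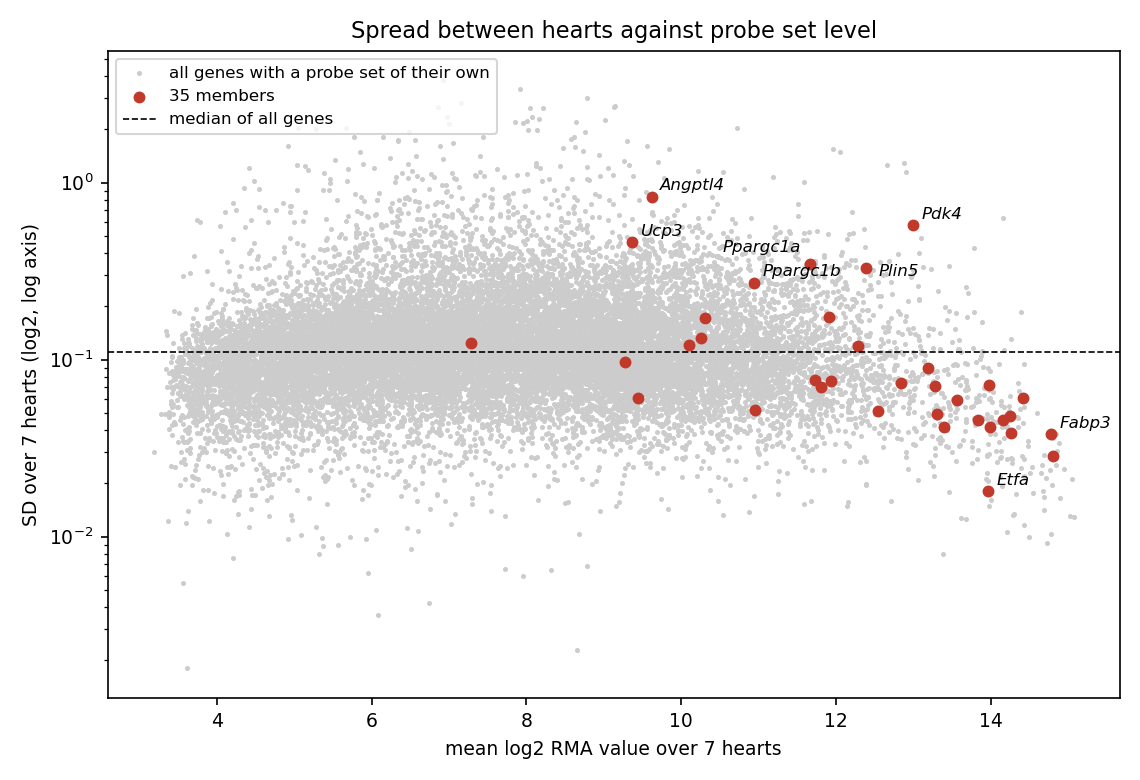
SD over the 7 hearts (log axis) against the mean log2 RMA value for all genes measured with an SD above 0 in grey and the 35 members in red, with the median SD of all genes dashed. Angptl4, Pdk4 and Ucp3 lie high above the dashed line, and most bright members, such as Etfa, lie below it.

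Sequence just upstream of the transcription start was available for 31 of the 38 members from RefSeq (GRCm38.p6), and it is shown for the members with the widest spread between hearts other than Angptl4, which had no entry, and Ppargc1a. PPAR and its retinoid X partner bind a direct repeat of AGGTCA with 1 base between the copies. A single AGGTCA, searched on both strands in the window from 250 bases before to 50 bases after the start, occurred in 8 of 31 members (25.8%) and in 18.1% of 27025 genes. The members with it were Rxra, Cd36, Cpt1a, Acadvl, Acadm, Echs1, Ucp3 and Plin5. The full repeat occurred in none of the 31, with or without 1 mismatch, and in 0.0481% and 0.644% of all genes. The binding element of estrogen-related receptors, TCAAGGTCA, which contains the AGGTCA letters, was also in none of the 31, against 0.466% of all genes. The NF-κB motif occurred in 3 of 31 members (9.68%), Etfa, Plin5 and Pnpla2, and in 9.55% of all genes. The 250 bases before the start are printed 5′ to 3′ on the strand of the gene for Pdk4 (chr6:5496279-5496528, minus strand), Ucp3 (chr7:100472741-100472990, plus strand) and Plin5 (chr17:56117549-56117798, minus strand, the first of 2 listed starts), with AGGTCA and the NF-κB motif in capitals.
Pdk4: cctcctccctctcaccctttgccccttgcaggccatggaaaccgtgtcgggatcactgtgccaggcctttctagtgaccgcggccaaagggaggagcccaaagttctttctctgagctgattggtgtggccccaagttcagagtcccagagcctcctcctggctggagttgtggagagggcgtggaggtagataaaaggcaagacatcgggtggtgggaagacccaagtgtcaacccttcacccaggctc
Ucp3: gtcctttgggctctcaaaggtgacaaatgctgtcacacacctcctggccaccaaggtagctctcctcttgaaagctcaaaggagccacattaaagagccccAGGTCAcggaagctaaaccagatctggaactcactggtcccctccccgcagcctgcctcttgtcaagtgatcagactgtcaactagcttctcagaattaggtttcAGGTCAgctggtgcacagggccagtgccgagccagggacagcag
Plin5: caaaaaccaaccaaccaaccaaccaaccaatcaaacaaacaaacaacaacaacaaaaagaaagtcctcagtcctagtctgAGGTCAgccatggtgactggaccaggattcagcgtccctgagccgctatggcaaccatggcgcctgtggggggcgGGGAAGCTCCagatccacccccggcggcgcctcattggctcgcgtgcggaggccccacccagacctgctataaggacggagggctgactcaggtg
Ucp3 carried AGGTCA 149 and 44 bases before the start. In Plin5 it began 170 bases before the start, and the NF-κB motif 95 bases before it. The Pdk4 window held neither, and nor did that of Ppargc1a, which was searched but is not printed. A match in these letters is a description of the window and no evidence that a factor binds there, and a window without one says nothing of more distant elements.

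The receptors and coactivators showed no difference that passed the test. Ppara, the receptor best known for driving fatty acid oxidation in heart and liver, read 10.26, 10.17, 10.50 and 10.51 in mdx HRTΔIKKβ replicates 1 to 4 and 10.02, 10.34 and 10.31 in the controls. The groups overlapped, with a difference of 0.14 ± 0.11 (SE; limma adjusted p = 0.826), and 2 further probe sets gave 0.12 and 0.19. Without control replicate 1, the heart with the skeletal muscle signal, it was 0.04. Ppard, the ubiquitous receptor of the pair, differed by 0.03 ± 0.09 and Rxra, the retinoid X partner, by -0.08 ± 0.05.

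Both PGC-1 coactivators had lower means in mdx HRTΔIKKβ hearts, but within wide errors. Ppargc1a, which encodes PGC-1α, read 11.24, 11.24, 11.89 and 11.96 in the mdx HRTΔIKKβ hearts and 11.60, 12.13 and 11.60 in the controls. Replicates 1 and 2 of mdx HRTΔIKKβ lay below every control and replicates 3 and 4 above 2 of the 3 controls. Its difference of -0.19 ± 0.23 (adjusted p = 0.869, limma) had the same sign on all 5 probe sets, which ranged from -0.22 to -0.09. It rested on control replicate 2, without which it was -0.02, and it was -0.01 with array weights. Ppargc1b, for PGC-1β, read 11.13, 11.00, 10.52 and 10.68 against 10.98, 10.98 and 11.34. Here replicates 3 and 4 of mdx HRTΔIKKβ were the lowest of all 7 hearts. The difference was -0.27 ± 0.16 (adjusted p = 0.804 in limma), with a 95% interval of -0.65 to 0.11. It was -0.15 without control replicate 3 and -0.16 without mdx HRTΔIKKβ replicate 3.

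The 4 measured uptake genes differed by -0.11 to 0.02, with 95% intervals that together spanned -0.27 to 0.17. Lpl, the lipase that frees fatty acids from circulating triglyceride, differed by -0.01 ± 0.05, Fabp3, the heart fatty acid binding protein, by 0.00 ± 0.05 and Cd36, the fatty acid translocase, by 0.02 ± 0.06. The largest of these, Slc27a1 (the transporter FATP1), read 9.23, 9.09, 9.29 and 9.29 in mdx HRTΔIKKβ hearts and 9.32, 9.41 and 9.26 in controls. These values overlapped. The difference was -0.11 ± 0.07 (adjusted p = 0.807, limma) and a second probe set gave 0.07 ± 0.06, with the opposite sign.

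In the carnitine shuttle, which carries acyl groups across the inner mitochondrial membrane, the 4 measured genes differed by -0.06 to 0.03. Cpt2, the inner membrane carnitine palmitoyltransferase, read 12.55, 12.48, 12.56 and 12.50 against 12.55, 12.57 and 12.64, which gave -0.06 ± 0.05 (limma adjusted p = 0.825). Its second, dim probe set gave -0.01. Cpt1a, the outer membrane enzyme of the liver type, differed by 0.03 ± 0.09, Slc25a20, the translocase itself, by -0.01 ± 0.09 and Crat, the carnitine acetyltransferase, by 0.03 ± 0.06. Cpt1b, the muscle form of the outer enzyme, was among those not analysed here.

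All 9 core beta-oxidation enzymes had a mean below the controls, by 0.02 to 0.09 log2 units, with a median of -0.04. None passed the test, and 52.3% of all genes also had a lower mean. The 9 share hearts and are not independent of each other. The 4 acyl-CoA dehydrogenases, which open each cycle for chains of different length, differed by -0.04 ± 0.05 (Acadvl, very long), -0.03 ± 0.05 (Acadl, long), -0.06 ± 0.05 (Acadm, medium) and -0.06 ± 0.05 (Acads, short). For the trifunctional protein the differences were -0.02 ± 0.05 (Hadha) and -0.03 ± 0.05 (Hadhb). Echs1, the short-chain enoyl-CoA hydratase, gave -0.06 ± 0.07 and Acaa2, the thiolase of the last step, -0.02 ± 0.06. The 95% intervals of the 9 together spanned -0.23 to 0.11, or 0.854- to 1.08-fold, so a 1.5-fold change in signal lies outside the interval of each. Whether signal near the top of the range hides a larger change in RNA was not tested. Without control replicate 2, or with the most variable probe set of each gene, 7 of the 9 were below 0. Without mdx HRTΔIKKβ replicate 4, or with the replicate number as a block, 8 of the 9 were.

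Hadh, the short-chain 3-hydroxyacyl-CoA dehydrogenase, was the one oxidation enzyme whose groups did not overlap. It read 14.35, 14.34, 14.43 and 14.42 in mdx HRTΔIKKβ hearts and 14.47, 14.50 and 14.45 in controls. All hearts lay within 0.17 log2 units, with the highest mdx HRTΔIKKβ heart just under the lowest control. The difference was -0.09 ± 0.05 (adjusted p = 0.796, limma; exact two-sided permutation p = 0.0571). This probe set is of a type (_x_at) whose probes can match other transcripts. A second bright probe set read 13.55, 13.56, 13.68 and 13.63 against 13.71, 13.76 and 13.74, again with no overlap, and differed by -0.13 ± 0.05 (unadjusted p = 0.0411, adjusted p = 0.796, limma). The third, dim probe set gave -0.06 ± 0.05.

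The enzymes that bring unsaturated fatty acids into the cycle and those that pass on the electrons were as close. Decr1, the 2,4-dienoyl-CoA reductase, read 13.24, 13.23, 13.35 and 13.23 against 13.26, 13.41 and 13.27, a difference of -0.05 ± 0.06 (limma adjusted p = 0.870). Without control replicate 2, its highest heart, nothing of this remained (-0.00224). The enoyl-CoA isomerases Eci1 and Eci2 gave -0.05 ± 0.06 and 0.02 ± 0.07. Etfdh, which hands the electrons from acyl-CoA dehydrogenases to ubiquinone, read 13.37, 13.34, 13.29 and 13.24 against 13.26, 13.33 and 13.27. Replicates of the groups were interleaved, with a difference of 0.03 ± 0.05 (adjusted p = 0.924, limma). The subunits of the electron transfer flavoprotein, Etfa and Etfb, differed by 0.01 ± 0.05 and 0.02 ± 0.05. From uptake to electron transfer, 8 of 23 members had a higher and 15 a lower mean. The 95% intervals of all 23 lay between -0.27 and 0.24, or 0.831- and 1.18-fold in signal, with the same limit for bright probe sets.

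**Figure D3:**
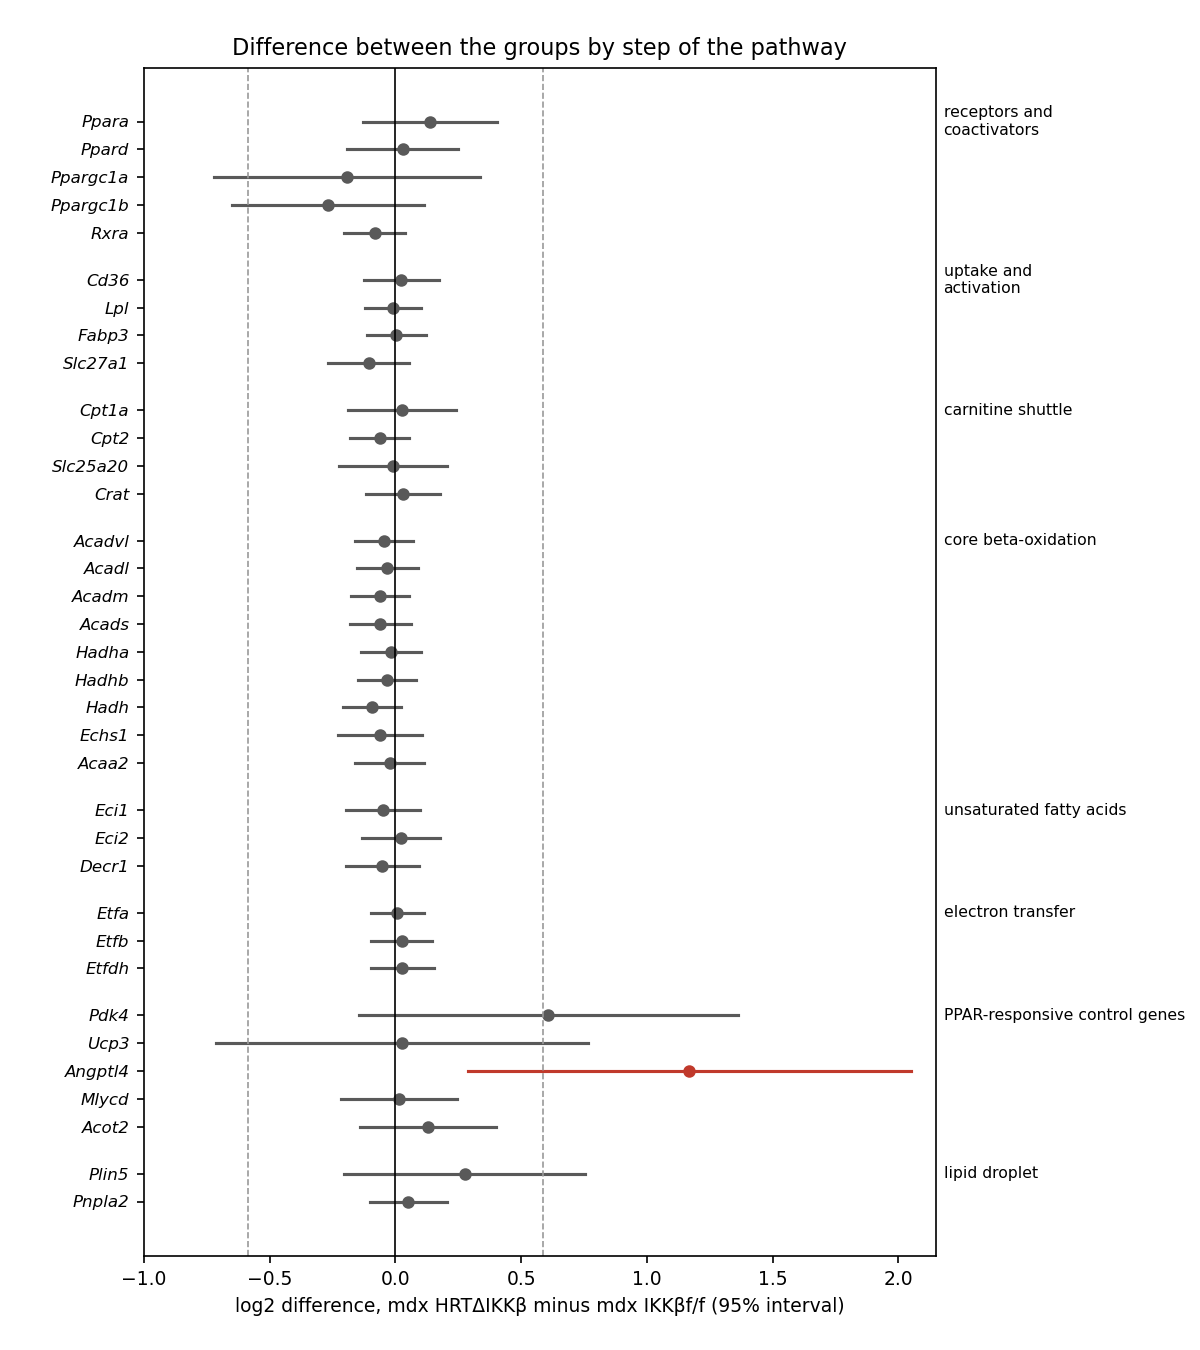
Difference between group means (mdx HRTΔIKKβ minus mdx IKKβf/f, log2) with its 95% limma interval for each of the 35 members. Dashed lines mark 1.5-fold, or 0.585 on this scale, and red marks the one member with an unadjusted p under 0.05, Angptl4. Intervals from uptake to electron transfer stay inside the dashed lines, those of Pdk4, Ucp3, Angptl4 and Plin5 cross the upper one, and those of Ppargc1a, Ppargc1b and Ucp3 the lower one.

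The PPAR-responsive control genes were the most variable group, and all 5 measured had a mean above the controls, as had 8683 of all 18193 genes, with a median difference of 0.13. Without mdx HRTΔIKKβ replicate 3, without control replicate 3 or after a second quantile normalization, 2 of the 5 were below 0, and the median was 0.05 without control replicate 3. Angptl4, a secreted inhibitor of lipoprotein lipase and a classical PPAR target, read 9.93, 10.11, 10.91 and 9.54 in mdx HRTΔIKKβ hearts and 9.50, 9.11 and 8.24 in controls. Each mdx HRTΔIKKβ heart lay above each control, although replicate 4 was barely above the highest control. The difference was 1.17 ± 0.38, or 2.25-fold with a 95% interval of 1.22 to 4.14 (unadjusted p = 0.0158, adjusted p = 0.796, limma). The exact two-sided permutation p was 0.0571, where 35 splits of the hearts allow no less than 0.0286.

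The size of this difference rested in part on 1 heart. Without control replicate 3 it was 0.81 (unadjusted p = 0.0615, limma), and without control replicate 1 it was 1.45. Its probe set is of a type (_s_at) whose probes can match more than 1 transcript. The other probe set of Angptl4 was near the lower end of the array, at 3.46, 3.55, 3.60 and 3.46 against 3.37, 3.46 and 3.41, and gave 0.10 ± 0.06.

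Pdk4, the pyruvate dehydrogenase kinase that spares glucose when fatty acids are burnt, read 12.76, 12.88, 14.05 and 13.34 in mdx HRTΔIKKβ hearts and 12.95, 12.80 and 12.19 in controls. Replicates 3 and 4 lay above all controls and replicates 1 and 2 among them. The difference of 0.61 ± 0.32, or 1.52-fold, did not pass the test (adjusted p = 0.796, limma; interval -0.15 to 1.36). Without mdx HRTΔIKKβ replicate 3 it was 0.35, and without control replicate 3 it was 0.38.

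Ucp3, an uncoupling protein of the mitochondrial inner membrane, read 9.23, 8.91, 10.26 and 9.08 against 9.68, 9.22 and 9.13. Replicate 3 of mdx HRTΔIKKβ was far above all other hearts, and the other 3 lay within or below the range of the controls. The difference was 0.03 ± 0.32 (limma adjusted p = 0.991) and turned to -0.27 without that heart. The same order of the mdx HRTΔIKKβ hearts was read by a second probe set, with a difference of 0.14 ± 0.32. Acot2, a mitochondrial acyl-CoA thioesterase, differed by 0.13 ± 0.12. Its close copy Acot1 may share signal with it. Mlycd, which breaks down the oxidation inhibitor malonyl-CoA, gave 0.01 ± 0.10.

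Of the lipid droplet genes, Plin5, which coats droplets in oxidative tissues, read 12.44, 12.76, 12.83 and 11.996 in mdx HRTΔIKKβ hearts and 12.11, 12.48 and 12.10 in controls. Replicates 2 and 3 were the highest of all hearts and replicate 4 the lowest. The difference was 0.28 ± 0.21 (adjusted p = 0.817, limma), and a second probe set with the same order of the mdx HRTΔIKKβ hearts gave 0.36 ± 0.20. Without mdx HRTΔIKKβ replicate 4 the difference on the first was 0.45, without replicate 3 it was 0.17, and without replicate 2 and control replicate 1 together it was 0.13. Pnpla2, the triglyceride lipase ATGL, differed by 0.05 ± 0.07.

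**Figure D4:**
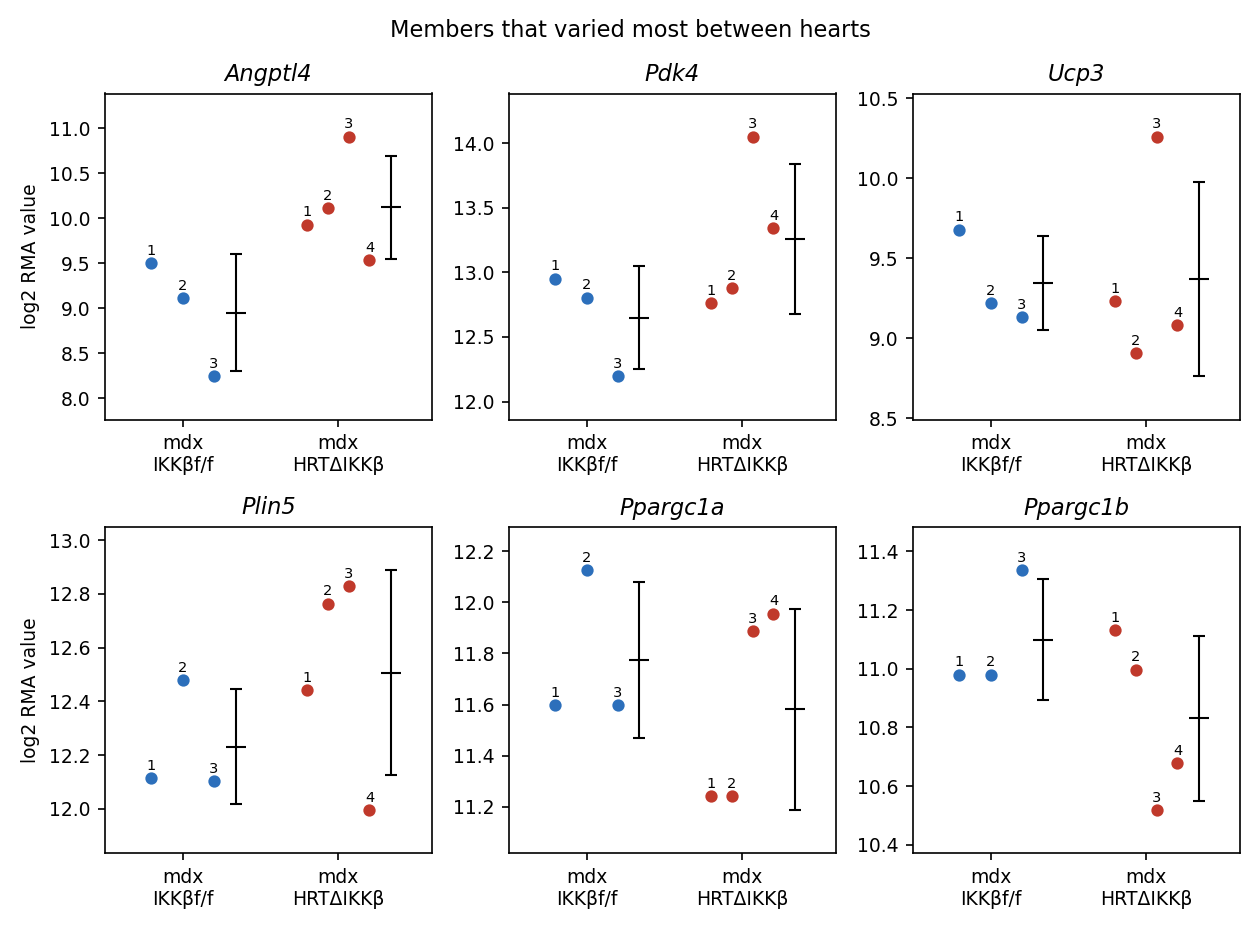
Log2 RMA values of the 6 members with the largest SD over the hearts, with the replicate number beside each point and the group mean ± SD in black (n = 3 mdx IKKβf/f in blue, n = 4 mdx HRTΔIKKβ in red). Each panel has its own axis. Angptl4 alone has no overlap between groups, replicate 3 of mdx HRTΔIKKβ leads in Angptl4, Pdk4, Ucp3 and Plin5, and among the mdx HRTΔIKKβ hearts replicates 1 and 2 are the lower pair for Ppargc1a and the upper pair for Ppargc1b.

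The same heart led several of these genes. Replicate 3 of mdx HRTΔIKKβ was the highest of the 7 hearts for 12 of the 35 members, and the mean of the 5 control genes in it was 0.73 above their average, against -0.08 to 0.01 in the other mdx HRTΔIKKβ hearts. In the controls this mean was 0.01, -0.14 and -0.54. Control replicate 2 was the highest for 11 members, most of them oxidation genes, and mdx HRTΔIKKβ replicate 4 the lowest for 10. Control replicate 2 also had the lowest mean of the 5 atrial genes (-1.99), and mdx HRTΔIKKβ replicate 4 the highest (1.18). The part of this in the members was not tested.

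Several marker lists also varied between these hearts. Glucocorticoid-responsive genes (9 of 9 measured) had means of -0.03, 0.01, 0.67 and 0.39 in mdx HRTΔIKKβ and -0.66, 0.13 and -0.50 in controls around their own average. The genes of this list did not move as one. Replicate 3 of mdx HRTΔIKKβ was the highest heart for 2 of the 9, Fkbp5 and Cdkn1a, replicate 4 for 3, replicate 1 for 2, and replicate 2 and control replicate 2 for 1 each, and 7 of the 9 had a higher and 2 a lower mean in mdx HRTΔIKKβ. Fkbp5, named after its values were seen, read 9.47, 9.73, 11.00 and 10.03 against 8.30, 9.59 and 8.70. Clock genes differed between hearts too. Dbp, a clock output gene, read 11.92, 10.17, 9.29 and 11.45 against 12.01, 11.31 and 12.20, and Arntl, which runs in the opposite phase, read 7.38, 9.36, 9.27 and 7.48 against 7.62, 7.89 and 7.16. Replicates 2 and 3 of mdx HRTΔIKKβ therefore stood apart from the other 5 hearts in both. All 12 clock genes had means of -0.02, -0.29, -0.25 and 0.13 in mdx HRTΔIKKβ and 0.16, 0.10 and 0.16 in controls around their own average. Of the 12, 3 had a higher mean in mdx HRTΔIKKβ, namely Arntl, Npas2 and Cry1, and 9 a lower one. Because the list holds genes of opposite phase, such as Dbp and Arntl, its mean can hide a shared shift, and the split is no sign of disagreement. Per1 did not follow Dbp, since it read 8.26 in replicate 2 and 9.64 in replicate 3 of mdx HRTΔIKKβ, against 9.18 to 9.49 in controls. Adipoq, made by adipocytes, read 10.34, 11.73, 9.46 and 9.47 against 9.94, 6.58 and 7.63, and the means of 6 measured adipocyte genes lay between -0.05 and 1.22 in mdx HRTΔIKKβ and between -0.87 and 0.02 in controls. The part of these in the values of Angptl4, Pdk4, Ucp3 and Plin5 was not tested. With mdx HRTΔIKKβ replicate 2 and control replicate 1 both left out, the difference of Angptl4 was 1.45, and members whose groups did not overlap numbered 7 of 35 where the share of all genes was 15.2%.

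Further probe sets gave a second reading for 23 of the 35 members. Of 34 such probe sets, 26 differed in the same direction as the main one, 1 had an unadjusted p under 0.05 (that of Hadh), and their differences ran from -0.22 to 0.36.

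A wider set of 121 genes around the pathway, 113 of them measured, was read in the same fit. None passed an adjusted p of 0.05. With an unadjusted p under 0.05, 9 of the 113 had a higher and 7 a lower mean, and the groups did not overlap for 13, where the shares of all genes given above were 3.25%, 2.95% and 5.67%. Each share was higher among these genes than among all genes. The lists were chosen with earlier results of these data known, so this was not tested. The median difference was 0.00, with 57 above and 56 below 0. Peroxisomal, ketone body and other acyl-CoA enzymes (27 of 31 measured) held no gene with such a p in either direction. The smallest were those of Acot7, an acyl-CoA thioesterase (-0.17 ± 0.08), the peroxisomal thiolase Acaa1a (-0.14 ± 0.06) and the isobutyryl-CoA dehydrogenase Acad8 (-0.16 ± 0.08).

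Of the other uptake and activation genes (19 of 21 measured), 1 was higher and 1 lower at this p, against 3.25% and 2.95% of all genes. Fabp5, the epidermal fatty acid binding protein, read 11.75, 11.66, 11.51 and 11.45 in mdx HRTΔIKKβ against 11.25, 11.01 and 11.48 in controls, a difference of 0.35 ± 0.12. One control heart reached the lowest of the mdx HRTΔIKKβ hearts, and without control replicate 2 the difference was 0.23 (unadjusted p = 0.0827, limma). The acyl-CoA synthetase Acsl3 differed by -0.16 ± 0.06, and the lipoprotein receptor Vldlr by -0.22 ± 0.11. Without cross-hybridizing probe sets these values were 0.01 and -0.05. Macrophages, which also make Fabp5, had marker means of -0.01 to 0.34 in mdx HRTΔIKKβ and -0.31 to -0.19 in controls (6 of 6 genes measured), and the part of this in Fabp5 was not tested.

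Genes of triglyceride storage and lipolysis (21 of 21 measured) included 4 higher and 1 lower at an unadjusted p under 0.05, against 3.25% and 2.95% of all genes. The 4 were Fitm2, Lipe, Cidec and Lpin2, of which Lipe and Cidec also stood on the adipocyte list. Fitm2, which helps lipid droplets to form, read 11.77, 11.86, 11.80 and 11.74 in mdx HRTΔIKKβ and 11.47, 11.58 and 11.63 in controls. The groups did not overlap, and differed by 0.23 ± 0.06 (unadjusted p = 0.00495, adjusted p = 0.790, limma). Lipe, the hormone-sensitive lipase, read 9.21, 9.63, 9.48 and 9.03 against 8.98, 8.31 and 8.64, with a difference of 0.69 ± 0.19 (adjusted p = 0.796, limma). Lipe is abundant in adipocytes and stood on the adipocyte list, whose 5 other measured genes had differences of 0.02 (Fabp4) to 2.20 (Adipoq), and their part in the value of Lipe was not tested. Abhd5, the coactivator of the lipase ATGL, read 10.02, 10.05, 10.04 and 10.06 against 10.14, 10.18 and 10.22 and differed by -0.14 ± 0.05. On its most variable probe set the difference was -0.01, and that of Lipe was 0.35 as the mean over its probe sets.

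Among other nuclear receptors and cofactors (23 of 25 measured), 1 was higher and 2 lower at this p, against 3.25% and 2.95% of all genes. Esrrb, an estrogen-related receptor, read 8.85, 8.86, 8.99 and 8.96 against 9.15, 9.07 and 9.20, with no overlap (-0.23 ± 0.06; adjusted p = 0.796, limma). This rested on a probe set of a type that can match other transcripts, and without such probe sets the difference was -0.06. The liver X receptor Nr1h3 differed by 0.36 ± 0.13 (0.23 without mdx HRTΔIKKβ replicate 2 and control replicate 1) and the deacetylase Sirt1 by -0.20 ± 0.08.

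The group around malonyl-CoA, AMPK and the pyruvate dehydrogenase complex (24 of 24 measured) held the smallest p of the wider lists. At an unadjusted p under 0.05, 3 of its genes were higher and 3 lower, against 3.25% and 2.95% of all genes. Pyruvate dehydrogenase is switched off by kinases such as Pdk4 and back on by the phosphatases Pdp1 and Pdp2. Pdp1 read 9.52, 9.38, 9.67 and 9.67 in mdx HRTΔIKKβ hearts and 10.07, 9.86 and 9.93 in controls. Its groups did not overlap, with -0.39 ± 0.09 (unadjusted p = 0.00255, adjusted p = 0.790, limma), and its most variable probe set gave -0.31 (unadjusted p = 0.0733, limma). Pdp2 read 8.18, 8.02, 8.31 and 8.30 against 8.53, 8.41 and 8.55, again without overlap (-0.29 ± 0.08). Of the kinases, Pdk3 read 6.89, 7.03, 6.89 and 7.15 against 6.83, 6.47 and 6.69 (0.32 ± 0.10). It had 1 probe set, near the middle of the array, with 48.2% of all probe sets brighter. Pdk1 and Pdk2 had lower means, by 0.10 and 0.13 log2 units, with unadjusted limma p-values of 0.267 and 0.114. When single hearts were left out, the differences ran from -0.441 to -0.335 (Pdp1), -0.336 to -0.231 (Pdp2) and 0.228 to 0.407 (Pdk3). Since their groups do not overlap, leaving out 1 heart could not turn their direction.

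**Figure D5:**
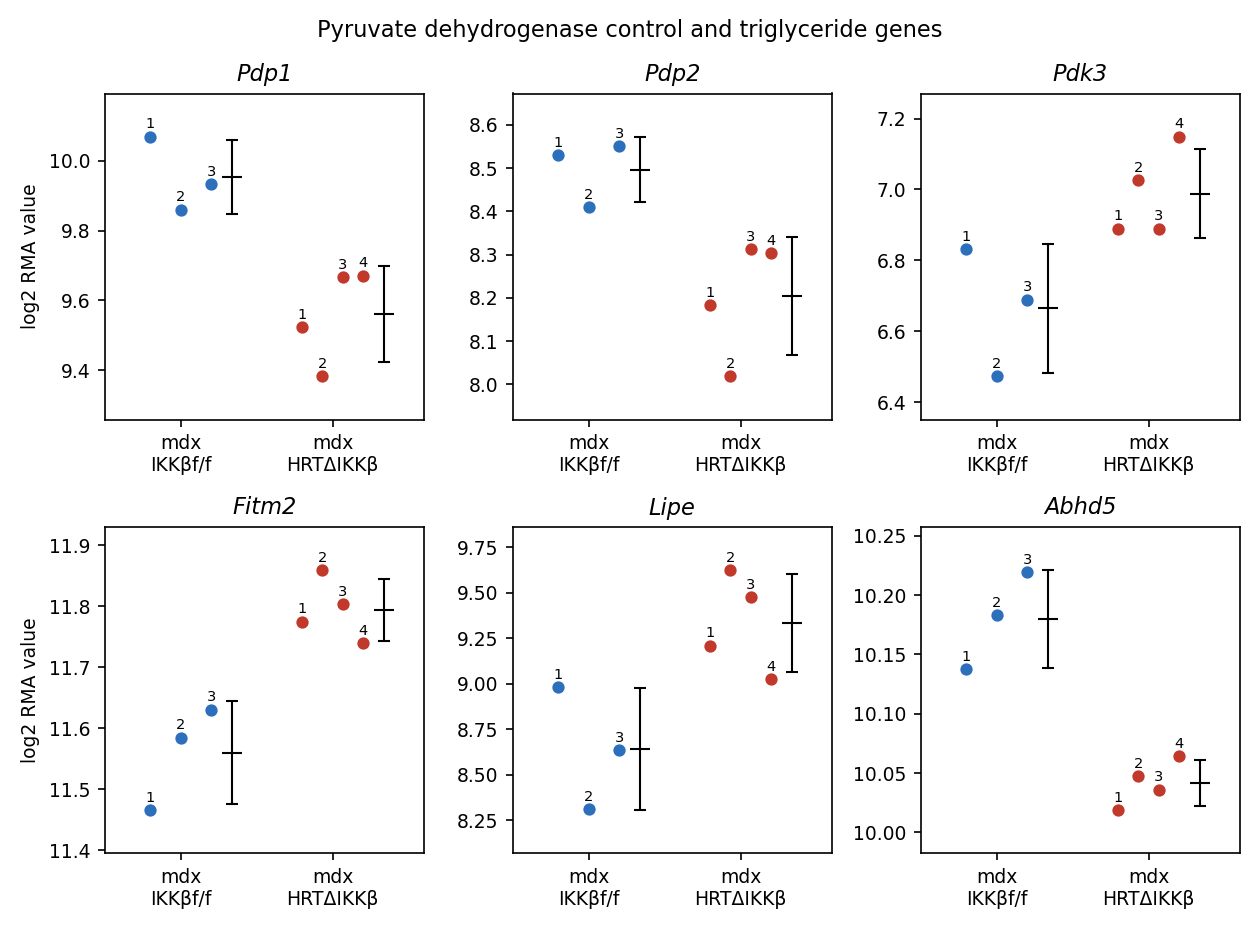
Log2 RMA values of 6 genes next to the members: the pyruvate dehydrogenase phosphatases Pdp1 and Pdp2, the kinase Pdk3, and the triglyceride genes Fitm2, Lipe and Abhd5. Numbers are replicates, black marks the group mean ± SD (n = 3 mdx IKKβf/f in blue, n = 4 mdx HRTΔIKKβ in red), and each panel has its own axis. The groups do not overlap in any of the 6 on the probe set shown. The genes were taken for their small unadjusted p, and none passed the adjusted threshold.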

How the data were processed

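Heart RNA was hybridised to Affymetrix mouse arrays (Mouse430_2). The authors made the deposited log2 values by RMA, with background correction and quantile normalization, and their notes name Partek and Affymetrix Expression Console (versions not given in the sources used here). No raw signals were used here, so background and saturation were not checked, and the small number of arrays limits the precision. The 7 arrays were grouped by their labels. Differences were fitted with limma 3.58.1 (R 4.3.3) over all 45037 probe sets with no filter, and p-values were adjusted by Benjamini-Hochberg over all of them. The platform annotation gave 34945 probe sets 1 gene, 932 several and 9160 none. The code of the fit was run on simulated data with independent noise. That run is not used here to say how small a difference could be found.

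The members and all lists were chosen with earlier results of these data known. Values in every heart were given for members with an unadjusted p under 0.05, groups that did not overlap or a difference of 1.5-fold, and for the smallest p in each step of the pathway. Of the wider lists up to 3 genes each were named by p. Ppara, Ppargc1a, Ucp3, the second probe sets, Pdk1, Pdk2 and the marker genes were chosen after their values were seen. Nothing in the labels pairs the replicate numbers, and same-numbered hearts did not deviate together (correlations -0.0751, -0.377 and -0.0362). Alternatives covered scaling, normalization, filters, choice of probe set, variance model, array weights, the methods' Student test and leaving out hearts. The alternative called without cross-hybridizing probe sets left out all names ending in _s_at, _x_at or _a_at, although _a_at alone does not mark a match to other genes. Under it Eci2 and Mlycd had no probe set.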

Additional observations from a re-analysis of the deposited data

Results flagged for a closer look

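In the group of 4 mdx HRTΔIKKβ hearts, 2 of 35 members had 1 heart far from the others, where chance gives about 1 in 20. Acadl in replicate 4 read 14.07, below 14.17 in the nearest and 14.18 in the highest heart, so that this gap took 0.912 of the whole range. Decr1 in replicate 3 read 13.35, above 13.24 in the nearest and 13.23 in the lowest heart, a gap of 0.856 of the range.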

How the results depend on the processing

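No member passed an adjusted p of 0.05 under any alternative. Members with an unadjusted p under 0.05 and a higher mean (1 in the reported fit) numbered 0 without cross-hybridizing probe sets (which removed the bright probe set of Angptl4, whose other one gave 0.10) and in the methods' Student test, 2 with array weights and with the replicate number as a block, and 0 to 3 when single hearts were left out (0 without control replicate 3, 3 without mdx HRTΔIKKβ replicate 4). Those with a lower mean (0 reported) numbered 1 without cross-hybridizing probe sets, with the most variable probe set, with a trended and robust variance, with array weights and in the Student test, and 0 to 1 when single hearts were left out. In the reported fit the shares of all genes were 3.25% higher and 2.95% lower. These shares also change with the alternative and are not given here for each. The counts at an unadjusted p are therefore no result about the members. Members whose groups did not overlap (2 reported) numbered 1 without cross-hybridizing probe sets, 2 to 7 when single hearts were left out (7 without control replicate 1, where the share of all genes was 12.3%) and 7 without the hearts highest in adipocyte and skeletal muscle markers, an alternative chosen after seeing the data. The replicate block turned the direction of no gene described in all hearts. Small differences also moved by over 1.5 times, among them Cpt2 (-0.0625) to -0.0363 without control replicate 3, Slc27a1 (-0.105) to -0.0607 without mdx HRTΔIKKβ replicate 2, Etfdh (0.0277) to 0.0074 without mdx HRTΔIKKβ replicate 1, Acaa1a (-0.141) to -0.0835 without control replicate 2 and Acad8 (-0.163) to -0.103 without mdx HRTΔIKKβ replicate 1. Directions turned for Decr1 with the most variable probe set (0.00381), Acsl3 without cross-hybridizing probe sets (0.0128) and Ucp3 after a second quantile normalization (-0.000503) and without mdx HRTΔIKKβ replicate 3 (-0.271), control replicate 2 (-0.0359) or control replicate 3 (-0.0794), with a range of -0.271 to 0.194 when single hearts were left out. The cause was not tested. The genes of the wider lists were run under these alternatives after the data had been seen. With 4 against 3 hearts, errors of 0.05 to 0.38 limit what could be seen.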

Other observations

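Lipogenic genes that belong to no step of oxidation varied between hearts more than the enzymes did. Scd1, the stearoyl-CoA desaturase, read 10.10, 12.35, 9.78 and 11.49 in mdx HRTΔIKKβ and 11.18, 9.43 and 9.43 in controls (0.92 ± 0.70), and Fasn, the fatty acid synthase, read 8.997, 10.46, 8.68 and 9.79 against 8.98, 8.23 and 8.69 (0.85 ± 0.41). For both, mdx HRTΔIKKβ replicates 2 and 4 were high and replicate 3 low, unlike in Pdk4 and Angptl4, where replicate 3 was the highest. Ucp1, the uncoupling protein of brown fat, read 9.45 in mdx HRTΔIKKβ replicate 2 and 5.54 to 7.11 in all other hearts, and Cidec, a droplet protein of adipocytes, read 8.41 in that heart and 4.78 to 6.55 in the others. The skeletal muscle gene Tnnc2 read 13.27 in control replicate 1, 9.67 in control replicate 3, 9.05 in mdx HRTΔIKKβ replicate 2 and 6.07 to 6.59 in the other 4 hearts.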
